A study of Mus musculus with 30 samples.

Results

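Heme is the iron-carrying ring that sits in hemoglobin, myoglobin, the cytochromes of the respiratory chain and catalase. The genes described here are 9 members of its synthesis and breakdown, Alas1, Alas2, Alad, Uros, Urod, Cpox, Ppox, Fech and Hmox1, taken by name from 20764 genes counted in mouse hearts and 54532 counted in HL-1 cells. The genes were chosen by name as a pathway, and selected on earlier readouts of these same libraries, though which expression values weighed in that choice is not recorded. The tests below are therefore those of fits across all genes, and counts over the 9 genes are descriptions of a list that was not chosen blindly.

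The study asked how age and NAD+ supply alter day and night gene expression in the heart. RNA was sequenced from 18 hearts of female C57BL6 mice in 6 groups of 3, kept in 12:12 light and dark cycles on standard chow: young mice of 2 months at ZT10 (day) and ZT22 (night, collected under red light), old mice of 12 months drinking plain water (old H2O) at both times, and old mice of 12 months whose water held 3 g/L nicotinamide riboside, an NAD+ precursor (old NR), at both times. Per the study's methods this supplement began at 2 months of age, and the background of the mice was a mix of C57BL6J and C57BL6N. The young mice drank water without the supplement, and their labels name the same water as those of the old H2O mice. A further 12 libraries came from HL-1 cells, a commercial line derived from a tumor of the mouse atrium, in 4 groups of 3: untreated, FK866 (an inhibitor of NAMPT, the main NAD+ salvage enzyme), FK866+NR, and FK866+NR+Ex527 (Ex527 inhibits the NAD+-dependent deacetylase SIRT1). Per the study's general statement on replicates, each mouse is a replicate in mouse work and each separately cultured well in cell work, while the labels of the HL-1 libraries do not themselves say so.

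In textbook terms, synthesis starts in mitochondria, where ALAS1 in most tissues and ALAS2 in developing red blood cells join glycine and succinyl-CoA; this step sets the pace of the pathway, and the Alas2 gene lies on the X chromosome. ALAD, UROS and UROD then work in the cytosol, CPOX and PPOX oxidize the ring at the mitochondrion, and FECH inserts the iron. HMOX1 opens heme to biliverdin, carbon monoxide and iron, and its gene is known to be repressed by BACH1 and induced by NRF2. Alas1 is a known output of the circadian clock in several tissues, and heme itself is a ligand of the clock repressors NR1D1 and NR1D2 (REV-ERB alpha and beta).

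Hearts held between 3922137 and 7562215 counts each, and HL-1 libraries between 21337922 and 35000109. All 9 genes passed the filter on low counts in both sets. Counts in hearts ran from 47 to 151 for Hmox1 and from 66 to 301 for Alas2, the least counted genes, up to 1890 for Alas1, so that the 95% interval of a log2 fold change for Hmox1 spanned about 0.4 to either side. All 5 cardiomyocyte markers (Myh6, Tnnt2, Actc1, Ryr2, Myl2) had at least 1634 counts in every heart. In HL-1 libraries the same markers were absent or nearly so: Actc1 and Myl2 had 0 counts in all 12, Myh6 had 0 to 6 and Tnnt2 4 to 43, and of the atrial markers Nppa had 0 to 3, Sln 0 to 1 and Myl7 3 to 24. The data thus go against the cardiomyocyte label of these cells, which are called HL-1 below as a name only. The HL-1 library FK866+NR replicate 1 stood apart by traces of other tissue, with 207 counts of Lyz2, 77 of Ryr2 and 37 of Hbb-bs where the other 11 libraries had 0 to 2, 0 to 4 and 0 to 1. Called changes of heme genes that use it are given with and without it, and the values of other gene lists include it.

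Upstream sequences of Alas2, Cpox, Alad and Urod are shown first, because Alas2 and Cpox changed most in hearts, and Alad and Urod carry the E-box to which CLOCK and BMAL1 are known to bind. They come from RefSeq on GRCm38.p6, where 7 of the 9 genes had an entry, with 10 starts in all; Fech and Hmox1 had none. The 250 bases before each start were searched on both strands for CACGTG (the E-box), AGGTCA (the core of ROR and REV-ERB elements), AGATAA and TGATAA (motifs of GATA factors). These motifs do not overlap one another in the stretches shown. Alas2 and Cpox are given from 250 to 51 bases before the start, and the others as 30 bases around the E-box, all 5′ to 3′ on the strand of the gene. Capitals mark a match, and TTATCT and TTATCA are AGATAA and TGATAA read on the other strand.
Alas2, chrX:150547167-150547366, plus strand: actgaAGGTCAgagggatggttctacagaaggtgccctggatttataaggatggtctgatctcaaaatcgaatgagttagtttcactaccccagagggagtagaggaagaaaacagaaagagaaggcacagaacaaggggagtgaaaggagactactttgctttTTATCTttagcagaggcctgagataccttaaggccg
Cpox, chr16:58669958-58670157, plus strand: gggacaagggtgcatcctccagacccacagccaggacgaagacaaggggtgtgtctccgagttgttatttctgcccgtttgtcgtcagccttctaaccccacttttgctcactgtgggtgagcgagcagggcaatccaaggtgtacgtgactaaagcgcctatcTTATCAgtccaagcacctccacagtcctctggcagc
Alad, upstream start, chr4:62520151-62520180, minus strand: gctccgaatgccCACGTGgaccccctcggg
Alad, downstream start, chr4:62519920-62519949, minus strand: ccgccccgccccCACGTGggcttgcgcttt
Urod, chr4:116994445-116994474, minus strand: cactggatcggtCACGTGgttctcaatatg

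The GATA motif of Alas2 and that of Cpox both begin 86 bases before the start, and the AGGTCA of Alas2 begins 245 bases before it. The E-boxes of Alad begin 105 bases before the upstream start and 28 bases before the downstream start, and that of Urod 49 bases before its start. Uros also held a CACGTG, 250 bases before its upstream start, and a TGATAA 68 bases before its downstream start. None of the searched letters was found in the 250 bases before the starts of Alas1 and Ppox. Among all 32851 RefSeq starts, 6.02% held CACGTG, 14% AGGTCA and 16.6% AGATAA or TGATAA in a window of this length. A match is a description of letters, not of binding.

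Per length of exon, given as RPKM (counts scaled to library total and exon length), Fech stood highest in hearts at 82.2 ± 4.63 (SD, n = 18). It was followed by Alas1 at 40.2 ± 3.93, Urod at 33.2 ± 2.09 and Alad at 32.9 ± 3.17. Cpox at 16.6 ± 2.39, Uros at 15.8 ± 1.17, Alas2 at 11.9 ± 3.52, Ppox at 9.82 ± 1.24 and Hmox1 at 9.67 ± 1.71 came after. Of neighbors in this order, only Fech and Alas1, and Alad and Cpox, had ranges over the hearts that did not overlap. The rank of Fech rested on the gene length used: with the 2901 bases given in the HL-1 table its rank was 1, and with the 13838 exon bases of the GENCODE annotation its rank was 4, at 17.2 ± 0.971. The other 8 genes had the same length in both sources. Removal of duplicate reads, done upstream in the heart data, limits the counts of abundant genes most, and among these 9 the highest count per exon base in a heart was 0.583, for Fech.

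In HL-1 libraries the order was different. Alad was highest at 84.6 ± 10.9 RPKM (SD, n = 12) and Hmox1 came next at 60.2 ± 9.44, followed by Fech (18.8 ± 1.44), Cpox (16.1 ± 1.39) and Urod (14.4 ± 1.21). Alas1, at 5.82 ± 1.03, Ppox, at 3.9 ± 0.604, Uros, at 3.75 ± 0.187, and Alas2, at 2.24 ± 1.19, were lowest. With the GENCODE exon length Fech was at 3.94 ± 0.301 and its rank was 6 in place of 3. In untreated HL-1 libraries Hmox1 had 52.6 to 63.6 RPKM, where hearts had 5.91 to 12.8, and Alas1 had 5.07 to 5.78, where hearts had 34.8 to 46.7. Of the 9 genes, Cpox alone had overlapping ranges in hearts (13.4 to 22) and untreated HL-1 libraries (14.3 to 15.4). The sets were prepared, sequenced and counted separately, and this was not tested.

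**Figure D1:**
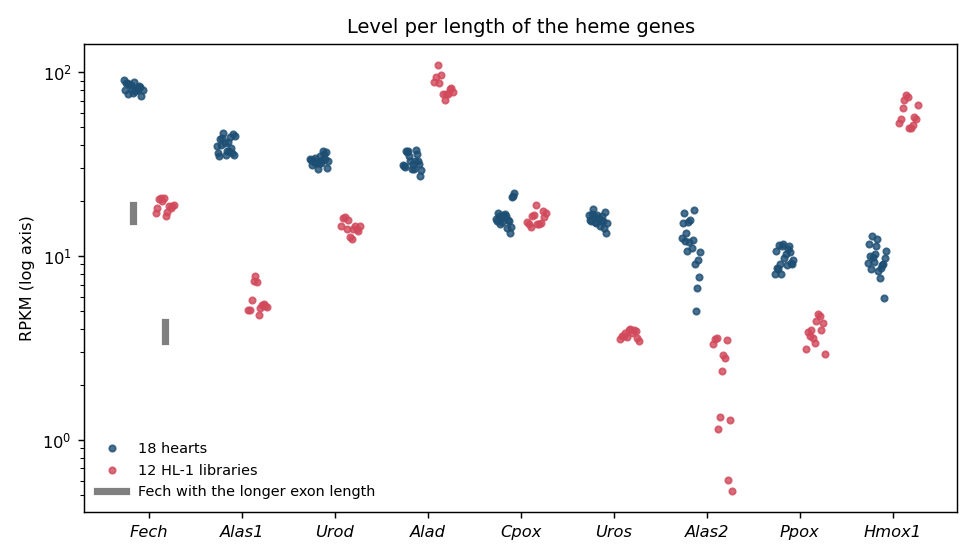
Level per length of the 9 heme genes on a log axis in RPKM, with each of 18 hearts (blue) and 12 HL-1 libraries (red) as a point. Hmox1 and Alad were higher in HL-1 and Alas1 in hearts, and grey bars show the range of Fech when its longer exon length is used.

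Among hearts, the levels of Alas1 and Alas2 stood closer in old mice. Per length, Alas1 exceeded Alas2 by 4.27 to 7.72 times in the 6 young hearts and by 2.04 to 4.1 times in the 12 old hearts. In HL-1 the ratio was 1.42 to 1.62 in untreated libraries, 3.05 to 6.39 with FK866, 1.56 to 1.87 with FK866+NR and 4.17 to 10 with FK866+NR+Ex527. These are levels, described with no test.

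Day against night in young hearts was the first comparison. Of 15443 genes tested in hearts, 14.4% differed between ZT10 and ZT22 in young mice at an adjusted p under 0.05 (the quasi-likelihood test of edgeR, adjusted by Benjamini-Hochberg over all genes tested, as throughout). Of the 9 heme genes 2 did, Cpox and Alad, a share near that background. The ranges of the day and night hearts did not overlap for 3 of the 9, and for 30.6% of all genes. The values below are normalised read counts, scaled by TMM (edgeR's trimmed mean of M values) to a common library size.

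Cpox, which converts coproporphyrinogen III and lies at chr16:58670292-58717636 on the plus strand, was the gene with the clearest night rise. Young hearts had 589, 505 and 550 at ZT10 and 801, 798 and 829 at ZT22. The groups did not overlap, and the 3 night hearts were the highest of all 18. Cpox was lower at ZT10 by a log2 fold change of -0.56 (SE 0.08, adjusted p = 2.48e-05). Without any 1 of the 6 hearts the change stayed between -0.62 and -0.51.

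Alad, which joins the first intermediates into porphobilinogen, had the opposite phase in young hearts. It had 400, 380 and 356 at ZT10 and 342, 291 and 311 at ZT22. The lowest day heart exceeded the highest night heart by a small margin, and the log2 fold change was 0.27 (SE 0.08, adjusted p = 0.0326). This call was lost without ZT10 replicate 1 or 2 or ZT22 replicate 2 or 3 (adjusted p 0.0851 to 0.16), and with DESeq2 (adjusted p = 0.0771).

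The other 7 genes did not pass the test in young hearts. Alas1, the housekeeping first enzyme at chr9:106233455-106248654, had 1560, 1360 and 1300 at ZT10 and 1630, 1250 and 1560 at ZT22, fully overlapping. Its log2 difference was -0.07, with a 95% interval of -0.31 to 0.17. Ppox, the oxidase after Cpox, had 280, 290 and 274 at ZT10 and 240, 232 and 243 at ZT22. These do not overlap, yet the adjusted p was 0.169.

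Of 9 listed regulators of Alas1, 5 differed between ZT10 and ZT22 in young hearts, where 14.4% of all genes did. All 5 are genes of the circadian clock. The study chose ZT10 and ZT22 as times of low and high Bmal1 and Clock expression. This count was therefore largely set by the choice of times and says little about Alas1. At ZT10 2 were higher and 3 lower. Arntl (BMAL1) was lower by a log2 fold change of -5.86 (adjusted p = 4.91e-16), Nr1d2 higher by 2.15 (adjusted p = 1.62e-11), and Npas2 lower by -2.13 (adjusted p = 2.34e-09). The median over the regulators was -0.13, against 0.01 over all genes tested.

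In old H2O hearts the day and night difference of Cpox was not seen. They had 618, 587 and 658 at ZT10 and 606, 619 and 608 at ZT22. All 6 lay below the young night hearts, and the lowest of them, at 587, overlapped the young day hearts. The log2 difference was 0.02, with a 95% interval of -0.14 to 0.18. Of all genes 4.20% passed the test between ZT10 and ZT22 in old H2O hearts, and of the 9 heme genes 0 did, by edgeR and by DESeq2, with 0 at an unadjusted p under 0.05 in edgeR. The ranges did not overlap for 0 of the 9 and for 22.2% of all genes.

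The difference itself was tested as the interaction of age and time. The ZT10 minus ZT22 difference of Cpox was larger in old H2O than in young hearts by 0.58 on the log2 scale (SE 0.11, adjusted p = 0.00247). Across all genes 6.89% passed this test, and Cpox was the 1 of 9 heme genes to do so. Without any 1 of the 12 hearts the value stayed between 0.53 and 0.64. Alad, whose day excess was absent in old H2O hearts (342, 329 and 325 against 388, 340 and 302), had an interaction of -0.3 with an adjusted p of 0.136, and Ppox -0.4 with an adjusted p of 0.138, so that neither passed.

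Old NR hearts showed no Cpox difference either, with 628, 538 and 609 at ZT10 and 643, 517 and 585 at ZT22. The log2 difference was 0.03 with a 95% interval of -0.13 to 0.19. Every old NR heart lay below the lowest young ZT22 heart, which had 798, a contrast that was not tested. Between ZT10 and ZT22 of old NR mice 5.37% of all genes and 0 of the 9 heme genes passed, in DESeq2 too, with 1 at an unadjusted p under 0.05 in edgeR. That gene was Alad, with 395, 371 and 398 at ZT10 and 348, 304 and 344 at ZT22. Its groups did not overlap, in the same direction as in young hearts, but the adjusted p was 0.107. Uros was the other of 2 heme genes without overlap in old NR hearts, against 22.2% of all genes, and its log2 difference of 0.16 had an adjusted p of 0.345.

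The same regulators of Alas1 were followed in old hearts, where their counts were again largely set by the choice of times. Of the 9, 2 were higher and 3 lower at ZT10 in old H2O hearts, and 2 were higher and 4 lower in old NR hearts. The shares of all genes that passed were 4.20% and 5.37%. Arntl differed by -3.19 (adjusted p = 2.28e-12) in old H2O and -4.55 (adjusted p = 1.24e-14) in old NR hearts. Its interaction was 2.67 for age and time (adjusted p = 1.72e-05) and -1.36 for NR and time (adjusted p = 0.0201). Alas1 in the same hearts differed by -0.12 and 0.12, with intervals of -0.35 to 0.12 and -0.11 to 0.36.

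**Figure D2:**
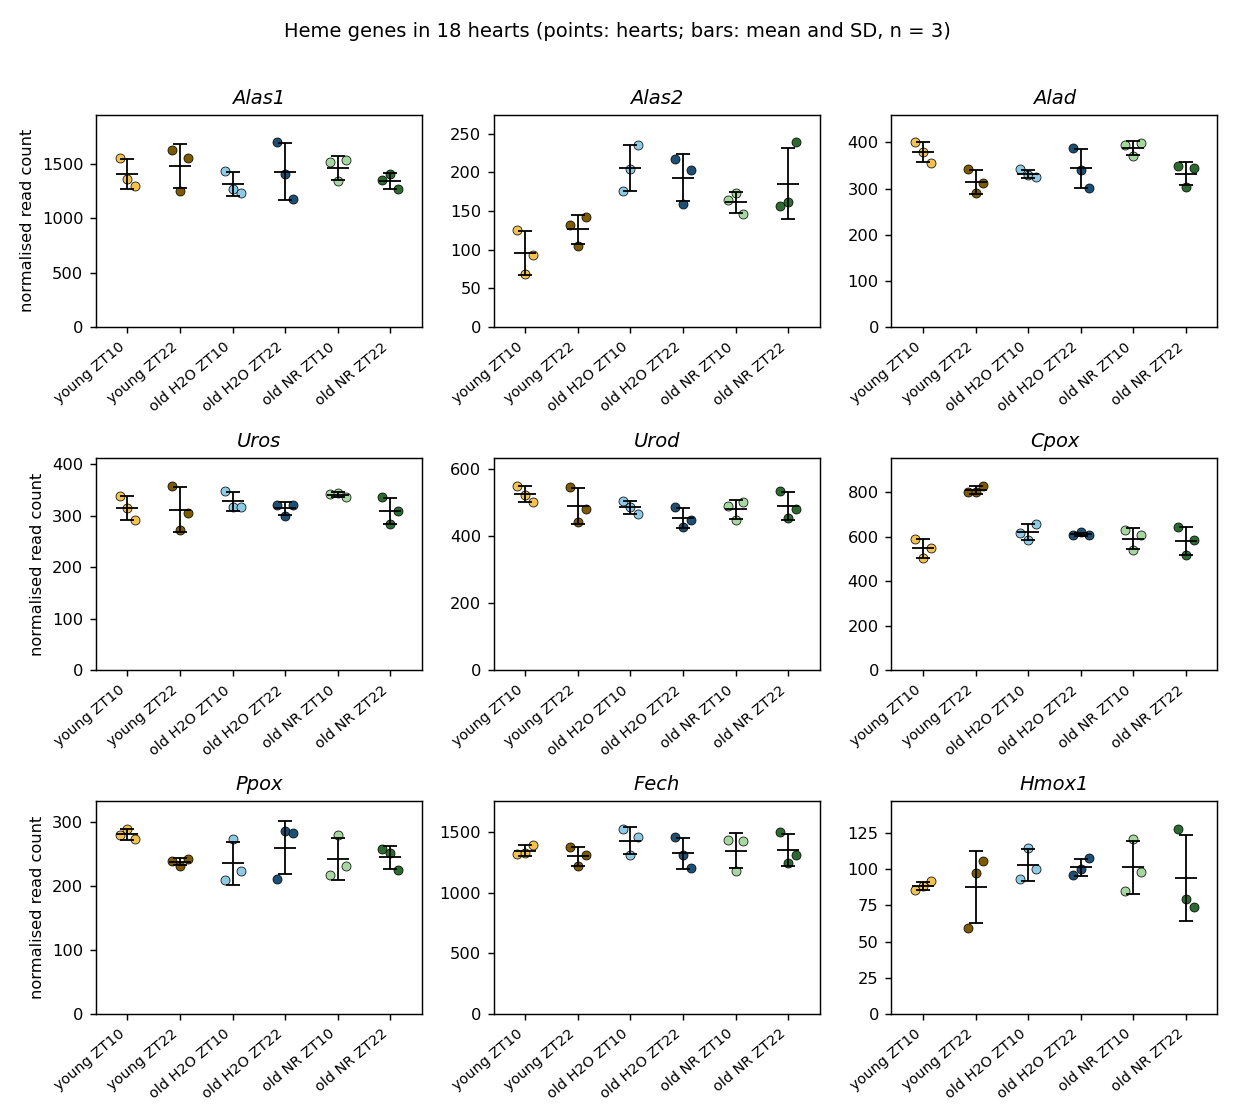
Normalised read counts of the 9 heme genes in 18 hearts, with each heart as a point and mean and SD (n = 3) as bars. Cpox was high in the 3 young hearts at ZT22 (798 to 829), and Alas2 was low in the 6 young hearts (68.4 to 142).

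Age was compared at each time. Alas2, the red cell form of the first enzyme, at chrX:150547375-150570638, was the heme gene that was higher in old hearts at both times. At ZT10 old H2O hearts had 176, 205 and 236, and young hearts had 125, 68.4 and 93. At ZT22 old H2O hearts had 217, 159 and 203, and young hearts 132, 105 and 142. The groups did not overlap at either time.

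At ZT10 Alas2 was higher in old H2O than in young hearts by a log2 fold change of 1.12 (SE 0.19, adjusted p = 0.00118), or 2.17-fold. At ZT22 it was higher by 0.61 (SE 0.18, adjusted p = 0.0295), or 1.52-fold. The difference between the times was 0.51 and did not pass the test (adjusted p = 0.282). Without any 1 of the 6 hearts the ZT10 change stayed between 0.91 and 1.37, with adjusted p up to 0.0129. The ZT22 call was lost without old H2O replicate 1 (adjusted p = 0.0682) or 3 (0.104) or young replicate 2 (0.146).

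Red cell markers were also compared, because Alas2 is known for that lineage. Summed over the 7 of 10 listed markers in the table, they reached 116 to 140 CPM (counts scaled to library total) in old H2O and 81.6 to 120 in young hearts at ZT10, and 97.5 to 149 and 93.3 to 118 at ZT22. Globin genes made up most of this. The other 3, Slc4a1, Klf1 and Tspo2, summed to 1.53 to 2.47 CPM in old H2O and 0.733 to 1.11 in young hearts at ZT10, and to 1.06 to 3.54 and 1.16 to 2.22 at ZT22. That rests on few reads: those 3 genes had 4 to 28 counts together in these hearts, and Tspo2 had 0 in 13 of the 18. Duplicate reads were removed upstream, which limits the counts of short abundant genes such as globins. Of the 5 red cell markers that were tested, 0 passed with age at ZT10 or at ZT22. The part of red cells in the Alas2 difference was not tested, and in whole hearts fewer cells of a type and less RNA per cell cannot be told apart.

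Macrophage markers were higher in old H2O than in young hearts. Their sum over 7 genes was 476 to 523 CPM in old H2O against 397 to 430 in young hearts at ZT10, and 497 to 569 against 375 to 425 at ZT22. Of the 7, 3 passed the test at ZT10 and 5 at ZT22, all higher, where 2.95% and 7.96% of all genes passed upwards. Hmox1, which tissue macrophages use to recycle iron, had 93.4, 115 and 100 in old H2O and 85.6, 88.1 and 91.7 in young hearts at ZT10. These do not overlap, but the log2 difference of 0.22 had an adjusted p of 0.589. At ZT22 Hmox1 had 96.3, 100 and 108 in old H2O and 59.6, 97.5 and 106 in young hearts.

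A neighbor on the opposite strand, Apex2, shares 311 of the 2403 exon bases of Alas2 (12.9%). Per the study's methods, heart reads that overlapped multiple genes were left out of the counts. The heart kit marks strand, but the sources used here do not say whether the counting used it. Apex2 differed between old H2O and young hearts by 0.28 at ZT10 (adjusted p = 0.382) and 0.34 at ZT22 (adjusted p = 0.209). The effect of the shared bases on the Alas2 counts was not tested.

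Of all genes 5.87% differed with age at ZT10 and 14.1% at ZT22, and of the 9 heme genes 1 (Alas2) and 2 (Alas2 and Cpox). The ranges did not overlap for 3 of the 9 at ZT10 and 2 at ZT22, where 27.8% and 28.2% of all genes did not overlap. At ZT22 Cpox was lower in old H2O hearts, at 606, 619 and 608 against 801, 798 and 829, by a log2 fold change of -0.40 (SE 0.07, adjusted p = 0.00107). At ZT10 the old H2O hearts overlapped the young ones and the log2 difference was 0.18 with an adjusted p of 0.199. The Cpox calls in young day against night, the interaction and age at ZT22 share the young ZT22 hearts and are not independent. Atrial markers summed to 338 to 505 CPM in old H2O and 154 to 420 in young hearts at ZT10. At ZT22 the sums were 117 to 310 and 126 to 259. Between ZT10 and ZT22 of old H2O hearts 1 of 4 atrial markers passed, where 4.20% of all genes did. This was Myl7, higher at ZT10 by 1.14 (adjusted p = 0.0381). The part of atrial tissue in the age and time comparisons was not tested.

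The remaining enzymes did not pass a test in any of the 9 heart comparisons. Fech, which adds iron as the last step, ranged from 1180 to 1530 over the 18 hearts. Urod ranged from 427 to 551, Uros from 273 to 359 and Alas1 from 1180 to 1700. Highest over lowest was 1.3 for Fech, 1.29 for Urod, 1.32 for Uros and 1.44 for Alas1, where Alas2 reached 3.49.

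NR against H2O in old hearts changed 0 of the 9 heme genes at ZT10 and 0 at ZT22, in edgeR and DESeq2, where 0.285% and 0.350% of all genes passed; at an unadjusted p under 0.05 edgeR gave 1 and 0. The 1 was Alad at ZT10, with 395, 371 and 398 in old NR and 342, 329 and 325 in old H2O hearts, an adjusted p of 0.322. Alas2 at ZT10 had 165, 173 and 146 with NR and 176, 205 and 236 without, which do not overlap. Its log2 difference was -0.35, with a 95% interval of -0.71 to 0.01 and an adjusted p of 0.507. The ranges did not overlap for 2 of the 9 genes at ZT10 and 0 at ZT22, and for 18.8% and 14.7% of all genes. Atrial markers also differed between these hearts, with a sum of 110 to 128 CPM in old NR and 338 to 505 in old H2O hearts at ZT10, and so did macrophage markers, at 405 to 441 and 476 to 523, and their part was not tested. At ZT22 Alas2 had 156, 162 and 239 with NR and 217, 159 and 203 without. The interaction of NR and time passed for 0 of the 9 genes in both tools (1 at an unadjusted p under 0.05 in edgeR) and for 0.343% of all genes.

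**Figure D3:**
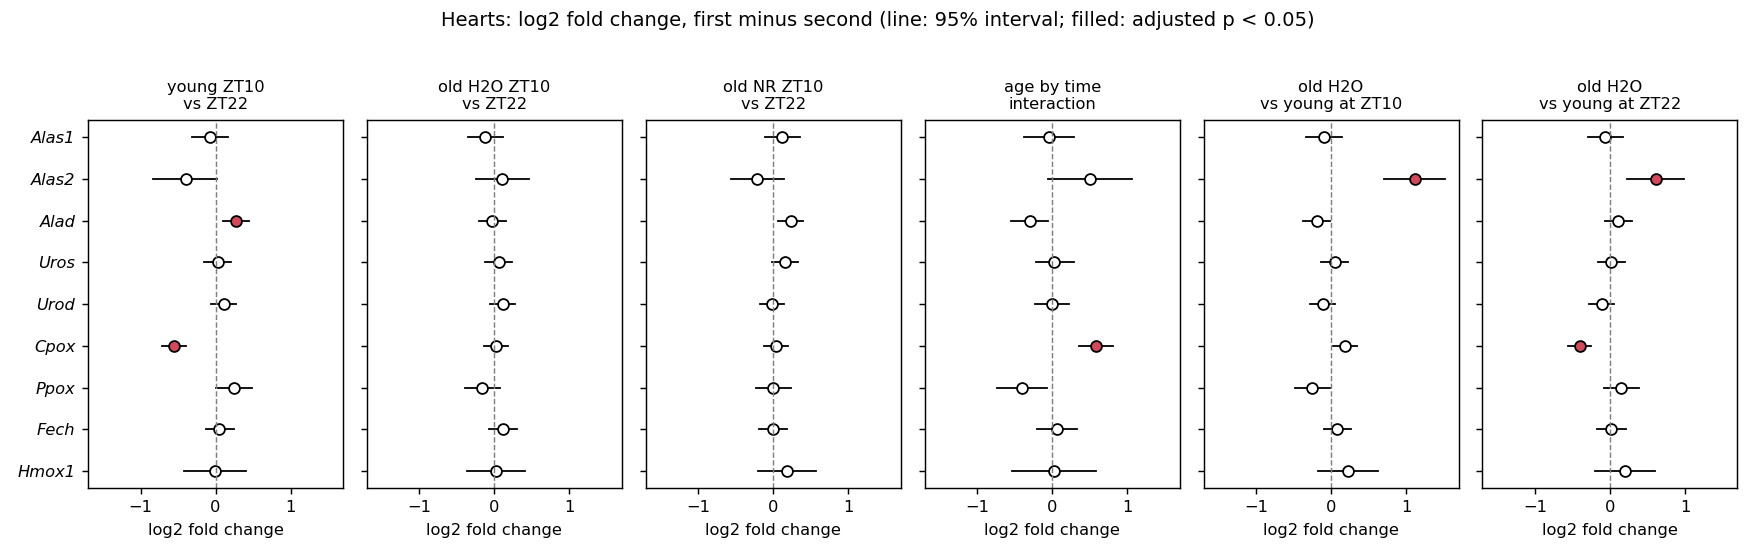
Log2 fold change (first minus second group, horizontal axis) of the 9 heme genes in 6 heart comparisons, with lines for 95% intervals and filled points for adjusted p under 0.05. Cpox is filled in young day against night, the interaction and age at ZT22, which all use the young ZT22 hearts. Alas2 is filled in both age comparisons.

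Genes around the pathway were compared by list. Of 15 listed genes of heme transport and handling, 1 passed with age at ZT10 and 3 at ZT22. These shares are not far from the 5.87% and 14.1% of all genes that passed. Hebp1, a heme-binding protein, was higher in old H2O hearts at both times, by 0.53 (adjusted p = 0.047) and 0.74 (adjusted p = 0.00182). At ZT22 Slc25a38, the mitochondrial glycine carrier that feeds the first step, was lower by -0.3 (adjusted p = 0.0302), and Abcb10 was higher by 0.23 (adjusted p = 0.0317). The medians over the list were 0.07 and 0.03, against 0 and 0 over all genes.

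Cd163, the macrophage receptor for hemoglobin bound to haptoglobin, was the 1 of 3 tested genes of plasma heme and hemoglobin uptake that passed, higher with age by 0.54 at ZT10 (adjusted p = 0.0148) and 0.54 at ZT22 (adjusted p = 0.00735). It is also one of the macrophage markers above. In these age comparisons 5.87% of all genes passed at ZT10 and 14.1% at ZT22. Of 15 iron genes, 1 passed with age at ZT10 and 2 at ZT22, near those shares. Tfrc, the transferrin receptor, was lower with age at ZT10 by -0.91 (adjusted p = 0.0165). At ZT22 Hamp, which encodes the iron hormone hepcidin, was higher by 1.85 (adjusted p = 0.0299) and Hfe by 0.39 (adjusted p = 0.00128). In young hearts Hamp was higher at ZT10 than at ZT22 by 2.33 (adjusted p = 0.00482), and in old H2O hearts Tfrc was lower at ZT10 by -1.17 (adjusted p = 0.00307). Each was the 1 of 15 iron genes that passed there, where 14.4% and 4.20% of all genes did.

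Of 5 regulators of Hmox1, 3 were lower in old H2O hearts at ZT22, where 6.17% of all genes passed downwards and 7.96% upwards. These were Mafk by -0.41 (adjusted p = 0.0105), Mafg by -0.38 (adjusted p = 0.00119) and Nfe2l2, which encodes NRF2, by -0.19 (adjusted p = 0.048). Hmox1 itself differed by 0.2 with an adjusted p of 0.539. Of 7 tested NRF2 targets, 2 were higher and 1 lower in the same comparison, G6pdx by 0.5 (adjusted p = 0.00732), Nqo1 by 0.29 (adjusted p = 0.0377) and Txnrd1 by -0.2 (adjusted p = 0.0421). The heme breakdown partners gave 0 of 4 with age at either time. Of 10 genes of heme use, Cygb alone passed with age, higher at ZT22 by 0.27 (adjusted p = 0.019). For these 2 lists the shares of all genes that passed with age were 5.87% at ZT10 and 14.1% at ZT22. NR against H2O changed 0 genes of these pathway and regulator lists in old hearts at either time, while 1 of 7 macrophage and 3 of 4 atrial markers were lower at ZT10 and 3 of 7 macrophage markers at ZT22. The shares of all genes that passed were 0.285% at ZT10 and 0.350% at ZT22.

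In HL-1 cells the treatments asked what follows when NAD+ is lowered by FK866, supplied again by NR, and supplied with SIRT1 blocked. A call by the study's rule needs an adjusted p under 0.01 and a change over 1.5-fold. A wider rule used here needs an adjusted p under 0.05 alone. The FK866 libraries enter 3 of the 5 comparisons, so their opposite signs in FK866 against untreated and FK866+NR against FK866 are not independent.

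With FK866, Alas1 and Hmox1 rose and Alas2 fell. Alas1 had 833, 820 and 936 in untreated libraries and 1170, 1230 and 1150 with FK866. The groups were well apart, and the log2 fold change was 0.45 (SE 0.07, adjusted p = 0.000413). Hmox1, at chr8:75093621-75100589, had 2450, 2560 and 2920 untreated and 3190, 3370 and 3320 with FK866, a log2 fold change of 0.31 (SE 0.08, adjusted p = 0.00913). It did not pass without untreated replicate 2 (adjusted p = 0.053).

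Alas2 had 212, 224 and 225 in untreated libraries and 70.9, 81.7 and 147 with FK866, where replicate 3 lay midway. It fell by a log2 fold change of -1.13 (SE 0.27, adjusted p = 0.00659), the only heme gene called by the study's rule, which 4.59% of 14760 genes passed. Leaving out any library but FK866 replicate 3 ended that call, with adjusted p up to 0.0404, still under the wider limit, and the fold change lay between -1.52 and -0.94. By the wider rule 24.8% of all genes and 4 of 9 heme genes passed. The other was Cpox, from 2730, 2590 and 2490 to 2840, 2840 and 3240, by 0.19 (SE 0.07, adjusted p = 0.0428), which did not pass without untreated replicate 2 or 3 or FK866 replicate 3 (adjusted p 0.121 to 0.159).

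Red cell markers were at or near 0 in HL-1 libraries: Slc4a1 had 0 counts in all 12, and the 9 markers in the table summed to 0.0353 to 2.27 CPM, the highest in FK866+NR replicate 1. Alas2 itself had 36 to 248 counts per library. Apex2, which shares exon bases with Alas2, fell by 0.25 on the log2 scale with FK866 (adjusted p = 0.029) and was counted at 284 to 472 per library. The part of its reads in the Alas2 counts was not tested.

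With NR added to FK866, Alas1 and Hmox1 were lower than with FK866 alone and Alas2 higher. Alas1 had 759, 844 and 879, lower by -0.51 (SE 0.07, adjusted p = 0.000148). Hmox1 had 2240, 2290 and 2370, lower by -0.52 (SE 0.08, adjusted p = 0.000273). For Hmox1 these values lay below all untreated libraries, though that difference of -0.2 had an adjusted p of 0.0765, and for Alas1 they overlapped them.

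Alas2 had 180, 176 and 219, higher than with FK866 alone by 0.93 (SE 0.27, adjusted p = 0.019). It did not pass without FK866 replicate 1 or 2 (adjusted p = 0.0888 and 0.0659) or FK866+NR replicate 3 (0.0706). Without FK866+NR replicate 1, the library with traces of other tissue, the changes were -0.45 for Alas1 (adjusted p = 0.00131), -0.5 for Hmox1 (0.00216) and 0.98 for Alas2 (0.0355).

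By the wider rule 28.9% of all genes and 6 of 9 heme genes passed between FK866+NR and FK866, and by the study's rule 4.81% and 0. The 3 others by the wider rule were small changes. Ppox had 518, 577 and 560 with NR and 461, 411 and 391 with FK866 alone, higher by 0.39 (SE 0.12, adjusted p = 0.0254). Cpox was lower by -0.19 (SE 0.07, adjusted p = 0.0415), with 2570, 2620 and 2650. Fech was lower by -0.20 (SE 0.07, adjusted p = 0.0476), with 1240, 1320 and 1420 against 1550, 1480 and 1550. B4galt3, on the opposite strand, shares 791 of the 4515 exon bases of Ppox (17.5%). With FK866+NR it differed by 0.25 from FK866 (adjusted p = 0.105) and by 0 from untreated (adjusted p = 0.992). The part of its reads in the Ppox counts was not tested.

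Leaving out single libraries ended several of these calls. Without FK866+NR replicate 1 Ppox kept its call (0.44, adjusted p = 0.0388), while Cpox (-0.18, adjusted p = 0.12) and Fech (-0.15, adjusted p = 0.192) did not. Ppox lost it without FK866 replicate 2 or 3 or FK866+NR replicate 2 or 3 (adjusted p 0.0579 to 0.0724). Cpox also lost it without FK866 replicate 3 or FK866+NR replicate 2 or 3, and Fech without any FK866 library or FK866+NR replicate 2, so that without 1 library Cpox had adjusted p of 0.0429 to 0.12 and Fech of 0.0363 to 0.192.

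FK866+NR was also compared with untreated libraries. By the study's rule 0.901% of all genes and 0 heme genes passed. By the wider rule 23.9% of all genes and 2 of 9 heme genes did, a share near that background. The shares of all genes include FK866+NR replicate 1, the library with traces of other tissue, and its part in them was not tested. Alad fell from 4400, 4630 and 5340 to 3420, 3750 and 3720, by -0.40 (SE 0.08, adjusted p = 0.0099). The groups did not overlap. Ppox was higher, at 518, 577 and 560 against 376, 457 and 437, by 0.38 (SE 0.12, adjusted p = 0.0344). Without FK866+NR replicate 1 neither passed (Alad -0.36, adjusted p = 0.0516; Ppox 0.42, adjusted p = 0.0723), and Ppox lost its call without any 1 of the 6 libraries.

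With Ex527 added to FK866+NR, Alas2 fell. Alas2 had 38.5, 80.7 and 33.8 in FK866+NR+Ex527 libraries, on 40, 108 and 36 counts. Against FK866+NR this was lower by a log2 fold change of -1.88 (SE 0.29, adjusted p = 0.00142), or 0.272 times the level, and the only heme gene by either rule, which 0.596% and 7.17% of all genes passed. Without any 1 of the 6 libraries the change lay between -2.41 and -1.67, with adjusted p up to 0.0113; without FK866+NR+Ex527 replicate 1 it missed the study's limit, and without FK866+NR replicate 1 it was -1.92 (adjusted p = 0.00498).

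Against FK866 alone Alas2 was lower by -0.95, with a 95% interval of -1.58 to -0.31, and missed the wider limit with an adjusted p of 0.0522. The groups overlapped, since FK866+NR+Ex527 replicate 2, at 80.7, exceeded FK866 replicate 1, at 70.9.

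Alas1 had 892, 863 and 870 with FK866+NR+Ex527, within the range of the untreated libraries. It was lower than with FK866 by -0.43 (SE 0.07, adjusted p = 0.00153). Against FK866+NR the difference was 0.08, with a 95% interval of -0.08 to 0.24.

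Hmox1 had 2650, 2540 and 3090, lower than with FK866 by -0.26 (SE 0.08, adjusted p = 0.0472). This passed in 1 of the 6 fits that leave out a library of these groups, the one without FK866+NR+Ex527 replicate 3; without each of the others adjusted p was 0.0661 to 0.204. Against FK866+NR Hmox1 was higher by 0.26, with an adjusted p of 0.0597. All 3 Ex527 libraries exceeded all 3 FK866+NR libraries. By the wider rule 12.2% of all genes and 2 of 9 heme genes passed against FK866, and by the study's rule 1.27% and 0.

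**Figure D4:**
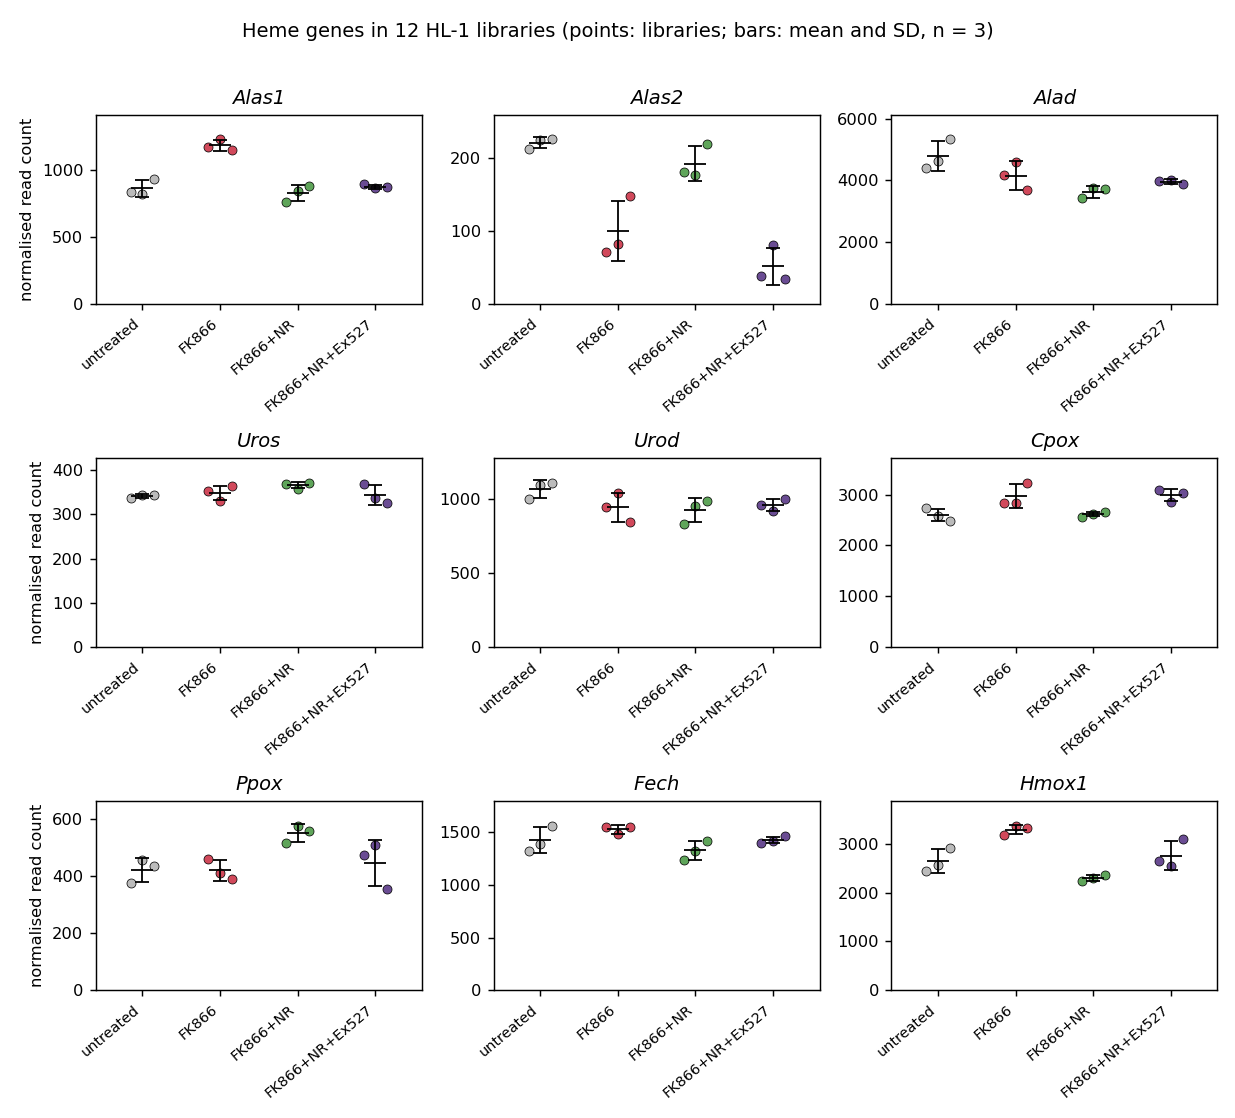
Normalised read counts of the 9 heme genes in 12 HL-1 libraries, with each library as a point and mean and SD (n = 3) as bars. Alas1 and Hmox1 were highest with FK866 (1150 to 1230 and 3190 to 3370), and Alas2 was lowest with FK866+NR+Ex527 (33.8 to 80.7).

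**Figure D5:**
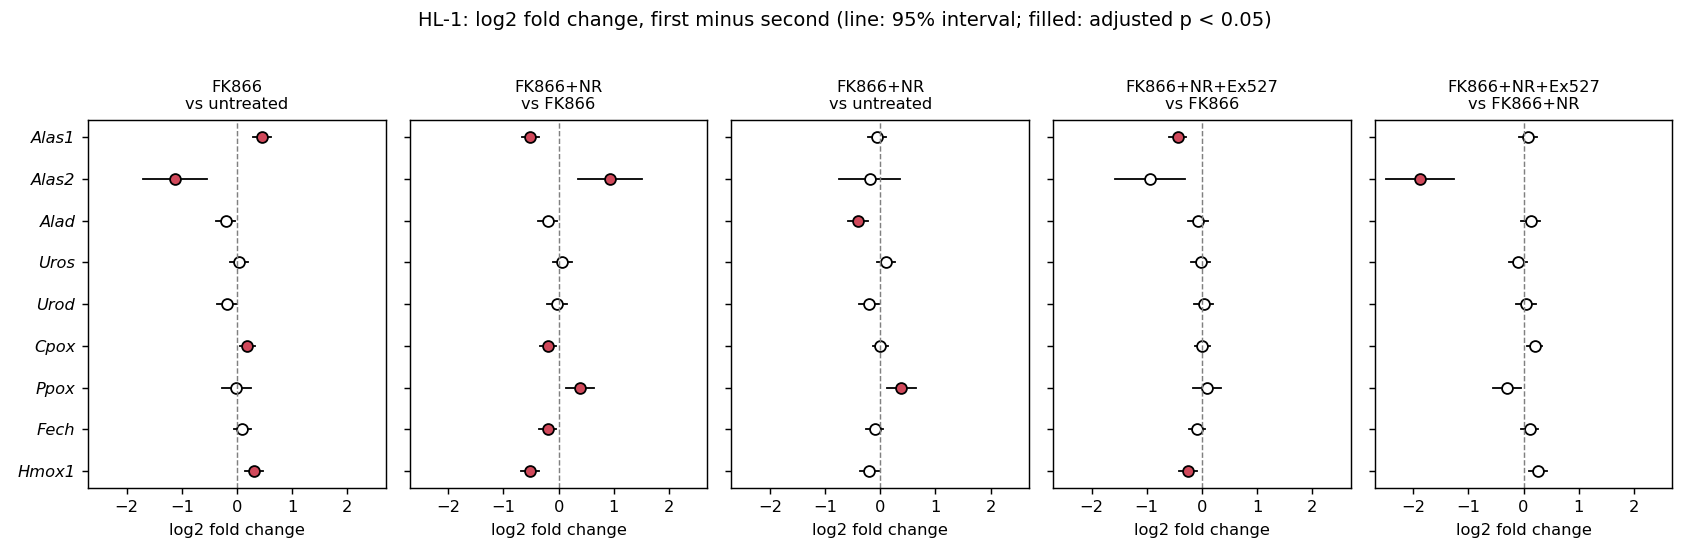
Log2 fold change (first minus second group, horizontal axis) of the 9 heme genes in 5 HL-1 comparisons, with lines for 95% intervals and filled points for adjusted p under 0.05. Alas1 and Hmox1 lie to the right for FK866 against untreated and to the left for both comparisons with FK866 as the second group.

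Uros and Urod did not pass in any HL-1 comparison. Uros ranged from 325 to 372 over the 12 libraries and Urod from 831 to 1110. Uros thus varied by 1.14 times and Alas2 by 6.66 times between the highest and the lowest library.

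NRF2 targets were compared as a list. Of 8 listed NRF2 targets, 6 were higher with FK866 by the wider rule, which 12.2% of all genes passed upwards, and the median over the list was 0.37 against 0.02 over all genes. Nqo1, a quinone reductase, was higher by 0.84 (adjusted p = 2.57e-07), Slc7a11, the cystine carrier, by 0.8 (adjusted p = 0.00077), and Srxn1 by 0.52 (adjusted p = 0.000145). With NR added, 6 of 8 were lower than with FK866 alone, where 28.9% of all genes passed in either direction. The median over the list was -0.53 against 0.01 over all genes. The 6 were led by Nqo1 at -1.03 (adjusted p = 3.33e-08), Osgin1 at -0.63 (adjusted p = 4.62e-05) and Srxn1 at -0.6 (adjusted p = 4.56e-05). Against FK866+NR, 4 of 8 were higher with Ex527, where 3.86% of all genes passed upwards.

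Of the Hmox1 regulators, Mafk, a small MAF partner of both NRF2 and BACH1, was higher with FK866 by 0.67 (adjusted p = 3.05e-05), lower with NR by -0.79 (adjusted p = 8.67e-06), and higher with Ex527 against FK866+NR by 0.53 (adjusted p = 0.00141). Mafg was higher with FK866 by 0.45 (adjusted p = 0.000174). Nfe2l2, Bach1 and Keap1 did not pass with FK866 or NR. Of 8 tested Alas1 regulators, 1 passed with FK866 and 0 with NR against FK866, where 24.8% and 28.9% of all genes passed.

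Iron and heme-protein genes moved in both directions with FK866. Of 14 tested iron genes 4 were higher and 1 lower by the wider rule, which 24.8% of all genes passed, with Tfrc higher by 0.54 (adjusted p = 0.000352) and Slc25a37, the mitochondrial iron importer, by 0.41 (adjusted p = 0.00659). With NR against FK866, 1 was higher and 5 were lower, where 28.9% of all genes passed. Ftl1, the ferritin light chain, was lower by -0.76 (adjusted p = 0.000105), Iscu by -0.4 (adjusted p = 0.00165) and Nfs1 by -0.38 (adjusted p = 0.00215).

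Of 9 tested genes of heme use, 5 were lower with NR against FK866 and 0 higher, where 28.9% of all genes passed in either direction. The median over the list was -0.3 against 0.01 over all genes. The 5 lower genes included Cox10, an enzyme on the path to heme a, at -0.54 (adjusted p = 8.63e-05), Cycs, cytochrome c, at -0.52 (adjusted p = 0.000186) and Cat, catalase, at -0.46 (adjusted p = 0.000128). With FK866 against untreated 3 of the 9 were higher and 1 lower, where 24.8% of all genes passed. Among them were Cat at 0.41 (adjusted p = 0.000296) and Cox10 at 0.34 (adjusted p = 0.00319). Of 4 breakdown partners, Blvra and Por were lower with FK866, by -0.33 (adjusted p = 0.0168) and -0.21 (adjusted p = 0.0227). Blvrb was lower with NR against FK866 by -0.5 (adjusted p = 0.00944). In these comparisons 24.8% and 28.9% of all genes passed in either direction.

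Of 15 transport genes, 3 were higher and 3 lower with FK866, where 24.8% of all genes passed. Among them were Flvcr1, a heme exporter, at 0.41 (adjusted p = 0.00206) and Pgrmc2, a heme chaperone, at -0.38 (adjusted p = 0.000816). With NR against FK866, 4 of the 15 were lower and 0 higher, where 28.9% of all genes passed in either direction, with Hebp1 at -0.71 (adjusted p = 0.00119).

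The genes whose log2 CPM ran most alike were listed for Alas1, Alas2 and Hmox1, as a description over libraries that share groups. Over 18 hearts and 11074 genes these were Gna12 (Pearson r = 0.8), Timmdc1 (0.79) and Prelid3b (0.79) for Alas1. They were Prxl2a (0.89), Abat (0.86) and Mal (0.85) for Alas2, and Ccl6 (0.76), Il6ra (0.73) and Pgd (0.7) for Hmox1. Over 12 HL-1 libraries and 11578 genes they were Serpinb9b, Cyp2c55 and Lamp1 (all 0.97) for Alas1, Il1rn (0.96), Tspan32 (0.92) and Cd200r3 (0.91) for Alas2, and Coq10b (0.98), Pwp1 (0.97) and Fez2 (0.96) for Hmox1.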

How the data were processed

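Gene counts of 18 hearts and 12 HL-1 libraries were used. The authors trimmed heart reads with Trimmomatic 0.39, aligned them with STAR 2.7.10a to mm10, removed duplicates with Picard 3.0.0 and deposited counts from featureCounts 2.0.4. Of the heart tables, the one named normalized holds raw counts. The one named raw holds counts that the authors divided by DESeq2 size factors and rounded, a score used here only to match gene symbols. For HL-1, aligned with HISAT2, the authors deposited counts and FPKM; the counter is not given in the sources used here. FPKM was used as a check: it was 0.968 to 1.014 times RPKM computed from the counts and the length column.

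Counts were fitted in edgeR 4.0.16 (R 4.3.3, TMM, quasi-likelihood) over all libraries of a set, as 9 contrasts in hearts (mean count over 5, adjusted p under 0.05) and 5 in HL-1 (filterByExpr). DESeq2 1.42.0, other filters and scalings, a replicate block and leaving out each library were alternatives. In simulated data with 200 genes changed 2-fold, 200 were recovered in the young day and night contrast with 8 false calls (15315 genes). In FK866 against untreated 193 were recovered with 2 false calls (14537 genes). The changed genes had a mean count of at least 50, and counts were drawn with the spread that edgeR estimated from these data. Recovery of smaller changes or of genes with lower counts was not simulated. Members and lists were chosen with earlier results of these data known. Every member is described; of other lists at most the 3 called genes with the largest change per comparison are named, and for likeness the 3 genes with the highest r among those with a mean count of at least 50. Intervals and p-values cover the spread between libraries. Annotation lengths and overlaps are from GENCODE M21. A red cell marker that had been listed is not reported here and was left out of the sums.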

Additional observations from a re-analysis of the deposited data

Results flagged for a closer look

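Cpox, coproporphyrinogen oxidase, differed between day and night in young but not in old H2O hearts, and the test of that difference across ages gave 0.58 on the log2 scale (SE 0.11, adjusted p = 0.00247, edgeR, 3 hearts a group). All 3 young ZT22 hearts (798 to 829 normalised counts) lay above all other 15 hearts (505 to 658). Groups of 3 were too small for a test of single outlying hearts.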

How the results depend on the processing

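The 21 changes with an adjusted p under 0.05 were refitted 258 times under alternatives: 0 turned direction, 207 stayed past that limit and 51 fell short of it, 39 of these when a library was left out. Among the counts of heme genes called, DESeq2 gave 1 in place of 2 for day against night in young hearts, and 1 in place of 0 for FK866+NR and for FK866+NR+Ex527 against FK866, as did no filter on low counts for the last 2. A fit of only the groups compared gave 0 in place of 1 for FK866 against untreated. An adjusted p under 0.05 without a fold limit gave 4, 6, 2 and 2 in place of 1, 0, 0 and 0 for FK866 against untreated, FK866+NR against FK866, FK866+NR against untreated and FK866+NR+Ex527 against FK866. Leaving out each library gave 1 to 2 for young day and night, for age at ZT22 and for age by time (2 without old H2O ZT22 replicate 1 or 3), and 0 to 1 for FK866 against untreated, FK866+NR against FK866, and FK866+NR+Ex527 against FK866 and against FK866+NR. The cause was not tested. Replicate numbers were not taken as pairs, since in no comparison were all same-number correlations of deviations over 0.1. They ran from -0.55 to 0.27, and from 0.07 to 0.27 for old NR against old H2O hearts at ZT22. So few correlations per comparison cannot show that libraries shared no batch. With the replicate block 19 of the 21 changes passed; Cpox did not in FK866 against untreated (adjusted p = 0.058) and in FK866+NR against FK866 (0.0553). Fech in FK866+NR against FK866 and Hmox1 in FK866+NR+Ex527 against FK866 did not pass with DESeq2 size factors (adjusted p = 0.054 and 0.0506). In hearts Hmox1 and Alas2 had the lowest counts of the 9 genes, 47 and 66 at the least.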
